A study of Homo sapiens with 4 samples.

Results

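Cohesin is the ring-shaped protein complex that holds DNA in loops and keeps sister chromatids together. The expression of 10 of its genes was followed in RPE-1 cells exposed to merbarone: the ring subunits SMC1A, SMC3 and RAD21, the alternative STAG1 and STAG2 subunits, the loading factor NIPBL, the release factor WAPL with its partners PDS5A and PDS5B, and the acetyltransferase ESCO2. The genes were taken from the deposited tables by NCBI Gene identifier and current symbol. All 10 were found among the 23459 listed genes, and all 10 passed the filter on low counts that left 12559 genes for testing.

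RPE-1 is an epithelial cell line from human retinal pigment epithelium, immortalized with telomerase (hTERT) and wild type according to its labels. Cells were starved in medium with 0.1% serum for 48 h, which the authors used to arrest them in G0/G1. They were then treated with 200 μM merbarone, a catalytic inhibitor of type II DNA topoisomerases. How complete the arrest was, was not tested here, and MKI67, a marker of cycling cells, had 881 to 2916 counts per library. The libraries were 2 replicates at 4 h and 2 at 8 h, and every cell in them carried the drug and the low-serum medium. Untreated cells were not analysed here, so time of exposure and time in low-serum medium cannot be told apart. Library totals ran from 8064450 to 10324697 counts. Genes that define pigment epithelium were near or at 0 for the most part, with RPE65 at 2 to 7 counts and TYR at 0 in all 4 libraries. MITF (669 to 882 counts), OTX2 (132 to 193 counts) and RDH5 (43 to 75 counts) were present. The keratins KRT8 and KRT18 were abundant, the epithelial cadherin CDH1 was at 0 or 1 count and EPCAM was at 0. Of the mesenchymal markers, VIM (88366 to 91660 counts) and FN1 (130059 to 164319 counts) had more counts than the keratins, and CDH2 had 3048 to 3950.

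Each cohesin ring is made of SMC1A and SMC3, closed by the kleisin RAD21, to which either STAG1 or STAG2 is bound. NIPBL, together with MAU2, loads the ring and drives it along DNA to extrude loops, and WAPL opens it again with the help of PDS5A and PDS5B. During S phase, ESCO2 acetylates SMC3 so that the rings behind the replication fork hold the sister chromatids until anaphase. Cohesin is needed in cells that do not divide as well, since it folds chromosomes in interphase and its loops stop at sites bound by CTCF.

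Promoters are shown for a pair of genes that fell (STAG1, SMC3), for the only gene that rose (WAPL), for STAG2 beside its paralog STAG1, and for PDS5A, which held the most motifs. The sequences are those of RefSeq, found once each in GRCh37 (the assembly named hg19 by the authors), on the strand of the gene from 250 to 51 bases before the start of transcription. Capitals mark letters searched on both strands: the E2F-type motifs TTCCCGC and TTGGCGC, the CHR-type motifs TTTGAA and TTCGAA found in promoters of cell cycle genes, and the CCAAT box. The windows are chr3:136471271-136471470 (minus strand) for STAG1, chrX:123094160-123094359 (plus strand) for the first of 3 starts of STAG2, chr10:112327203-112327402 (plus strand) for SMC3, chr4:39979582-39979781 (minus strand) for PDS5A and chr10:88281600-88281799 (minus strand) for WAPL.
STAG1: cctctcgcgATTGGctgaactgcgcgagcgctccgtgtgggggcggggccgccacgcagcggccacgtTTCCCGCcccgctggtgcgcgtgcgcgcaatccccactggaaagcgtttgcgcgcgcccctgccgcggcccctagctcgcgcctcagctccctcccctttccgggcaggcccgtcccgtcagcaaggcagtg
STAG2: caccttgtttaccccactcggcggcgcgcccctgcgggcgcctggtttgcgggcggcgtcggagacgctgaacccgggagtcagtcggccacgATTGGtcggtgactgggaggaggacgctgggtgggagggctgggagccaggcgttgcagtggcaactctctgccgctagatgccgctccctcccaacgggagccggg
SMC3: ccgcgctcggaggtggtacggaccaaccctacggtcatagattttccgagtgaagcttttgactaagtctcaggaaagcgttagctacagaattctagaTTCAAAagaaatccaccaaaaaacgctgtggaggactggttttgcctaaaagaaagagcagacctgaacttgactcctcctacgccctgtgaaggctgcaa
PDS5A: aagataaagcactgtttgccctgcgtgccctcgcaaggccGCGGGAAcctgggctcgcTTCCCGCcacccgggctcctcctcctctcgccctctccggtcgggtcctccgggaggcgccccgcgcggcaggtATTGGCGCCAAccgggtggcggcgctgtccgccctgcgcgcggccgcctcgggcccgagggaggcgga
WAPL: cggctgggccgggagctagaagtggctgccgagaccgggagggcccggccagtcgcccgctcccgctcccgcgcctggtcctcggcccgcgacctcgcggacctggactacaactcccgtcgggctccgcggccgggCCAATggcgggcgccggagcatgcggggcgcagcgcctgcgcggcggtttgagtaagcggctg

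RefSeq starts were at hand for 8 of the 10 genes, with 11 windows in all, and those of RAD21 and ESCO2 were not used here. Over the 250 bases before the start, an E2F-type motif lay in windows of 5 of the 8 genes (SMC1A, STAG1, STAG2, PDS5A and NIPBL), in 5 of their 11 windows, against 7.81% of the 35116 windows of the same length in the RefSeq table. PDS5A held both E2F-type motifs, where TTGGCGC overlaps its own reverse complement and a CCAAT box. In STAG1 the motif TTCCCGC began 182 bases before the start. A second start of SMC1A had TTCCCGC 19 bases upstream, NIPBL had TTGGCGC 48 bases upstream, and a further start of STAG2 had TTGGCGC 50 bases upstream, all outside the printed stretch. The CHR-type motif TTTGAA lay only in SMC3 among the 8 genes, 151 bases before the start, and in 13.3% of all windows. TTCGAA lay in none of the 8 genes and in 1.19% of all windows. A CCAAT box was present in 5 of the 8 genes and in 32.0% of all windows. As some genes had several windows, counts of genes and shares of windows are not like measures. These matches describe the letters in the windows and were not tested as binding sites.

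Levels of different genes were compared per length, as TMM-scaled CPM (counts scaled to a common library size) per kb of the canonical transcript. RAD21 stood highest at both times, at 73.1 ± 3.29 at 4 h and 64.1 ± 6.09 at 8 h (SD, n = 2 each). At 4 h it was followed by PDS5A (16.7 ± 0.74), SMC1A (16.3 ± 0.01) and SMC3 (14.8 ± 1.15), and then by WAPL (12.4 ± 1.07), STAG2 (10.6 ± 1.46), STAG1 (10.1 ± 0.06), NIPBL (6.57 ± 0.37), ESCO2 (5.24 ± 0.04) and PDS5B (2.08 ± 0.08). Neighbours whose libraries overlapped at 4 h were PDS5A with SMC1A, WAPL with STAG2, and STAG2 with STAG1. At 8 h the order after RAD21 was WAPL (14.9 ± 0.55), PDS5A (14.4 ± 0.99), STAG2 (11.5 ± 0.41), SMC3 (11.0 ± 0.51), SMC1A (10.5 ± 0.24), NIPBL (7.51 ± 0.29), STAG1 (6.98 ± 0.19), PDS5B (1.84 ± 0.14) and ESCO2 (1.73 ± 0.04). On this scale per kb, the regulator WAPL thus moved from rank 5 to rank 2, and ESCO2 from rank 9 to rank 10. Libraries of WAPL and PDS5A, of STAG2 and SMC3, of SMC3 and SMC1A, and of PDS5B and ESCO2 overlapped at 8 h.

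**Figure D1:**
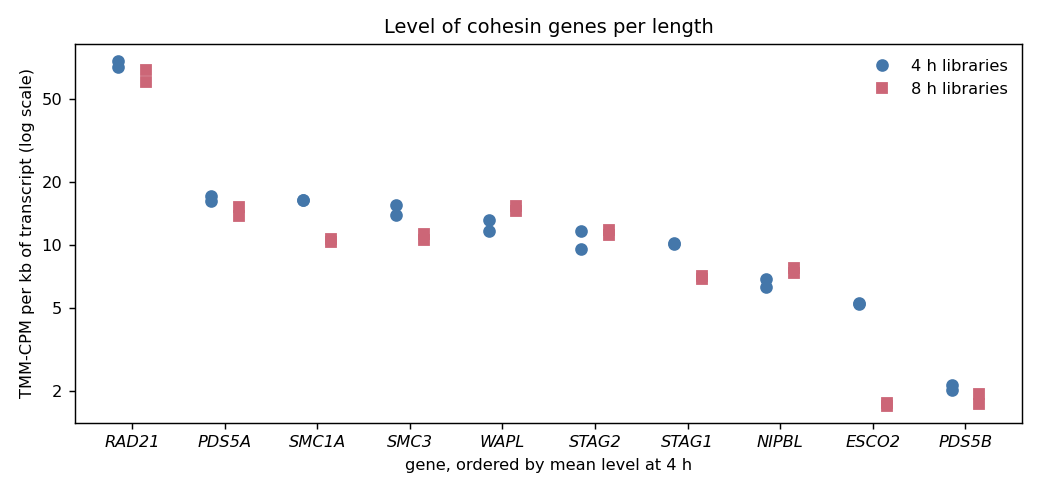
Level of each cohesin gene in TMM-scaled CPM per kb of canonical transcript (log axis), with genes ordered by their mean at 4 h, circles for the 2 libraries at 4 h and squares for the 2 at 8 h. RAD21 lies above the other 9 genes at both times, and ESCO2 drops from 5.24 to 1.73.

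Bowtie 1 places no read across a splice junction, and the share of the canonical transcript in which a 75-base read can start without crossing a junction ran from 58.3% in STAG2 to 81.0% in SMC1A. Of these starts, 94.1% were unique in the genome for SMC3 and for ESCO2, 99.5% for RAD21 and 100% for the other 7 genes. Per 1000 unique starts, RAD21 remained highest (103 ± 4.61 at 4 h, SD, n = 2) and SMC3 (25.3 ± 1.97) took the rank below it in place of PDS5A (25.1 ± 1.11), their libraries overlapping. On that scale STAG2 was at 18.2 ± 2.51 and STAG1 at 17.3 ± 0.10. WAPL there moved from rank 7 at 4 h to rank 4 at 8 h, and ESCO2 from rank 9 to rank 10. The order of the genes below RAD21 therefore depends on how length is counted.

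Between 4 h and 8 h, the ring subunits SMC1A and SMC3, the subunit STAG1 and the acetyltransferase ESCO2 fell, and the release factor WAPL rose. The remaining 5 genes, RAD21, STAG2, PDS5A, PDS5B and NIPBL, did not pass the test. The fall of ESCO2 was 3.02-fold, while the other falls were between 1.35-fold and 1.55-fold and the rise of WAPL was 1.21-fold. The test was edgeR's quasi-likelihood test on all retained genes, with Benjamini-Hochberg adjusted p-values below 0.05 called as changed. With this threshold 38.8% of all tested genes were called, 18.8% lower and 19.9% higher at 8 h, and 5 of the 10 cohesin genes (50%) were called, 4 lower and 1 higher. Adding the threshold of 1 on absolute log2FC used by the authors left 1 DEG among the 10, ESCO2, against 5.33% of all tested genes (3.88% lower and 1.45% higher). Scaling by library size alone turned the split of all called genes from 2500 higher and 2367 lower to 1698 and 3289, and that of DEGs from 182 and 487 to 125 and 641, and the abundance correction gave 262 and 338 DEGs. Both 8 h libraries lay below both 4 h libraries in 7 of the 10 genes and above in 2, while over all tested genes this held for 34.9% and 34.8%, or 69.7% in either direction. The median log2FC of the 10 genes was −0.20 and that of all tested genes 0.00. For bulk RNA, fewer cells that express a gene and less RNA per cell cannot be told apart.

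**Figure D2:**
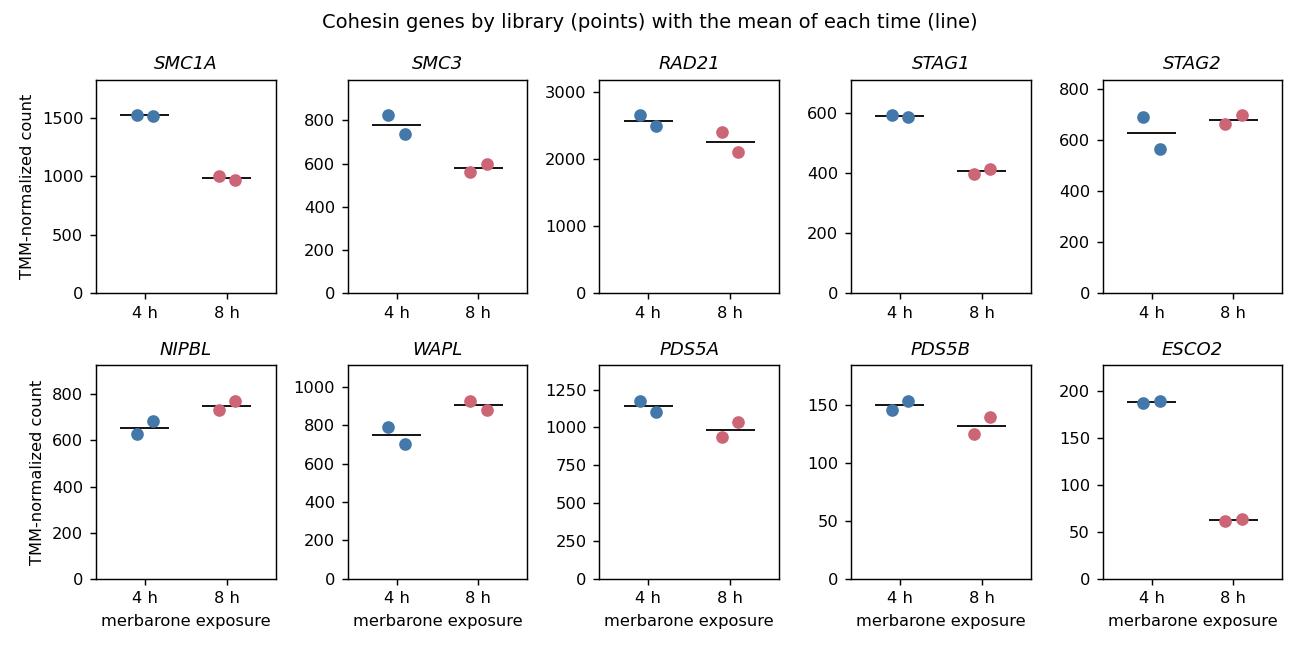
TMM-normalized count (linear axis from 0) of each cohesin gene in each library, with 4 h on the left and 8 h on the right of each panel and a line at the mean of the 2 libraries. SMC1A, SMC3, STAG1 and ESCO2 have both 8 h libraries well below both 4 h libraries, WAPL has them above, and STAG2 overlaps.

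SMC1A (chromosome X, 53401070 to 53449677, minus strand, GRCh37) encodes the SMC1 arm of the ring in somatic cells. Its TMM-normalized counts were 1519 and 1518 (4 h) against 997 and 965 (8 h). The replicates were nearly equal and the times did not overlap. The log2FC was −0.63 ± 0.08 (SE; edgeR adjusted p = 6.41e-06), a decrease of 35.3%, and 10.9% of all tested genes had a lower log2FC. SMC3 (chromosome 10, 112327442 to 112365806, plus strand), the obligate partner of SMC1A and the subunit that ESCO2 acetylates, had normalized counts of 824 and 738 (4 h) against 560.5 and 599 (8 h). Its 8 h libraries were both below the 4 h libraries, with a log2FC of −0.43 ± 0.10 (SE; edgeR adjusted p = 0.00142), a decrease of 25.9%. The log2FC of SMC1A minus that of SMC3 was −0.20 (standard error 0.13, from both fitted errors taken as independent), and this difference was not tested.

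RAD21 (chromosome 8, 117858173 to 117887015, minus strand) encodes the kleisin that closes the ring and is cut by separase at anaphase. Its normalized counts were 2648 and 2485 (4 h) against 2399 and 2097 (8 h). The libraries did not overlap, but the 8 h replicates lay nearly as far apart as the means of the times, and the log2FC of −0.19 ± 0.08 (SE; edgeR adjusted p = 0.0724) did not pass. RAD21 passed with scaling by library size alone (log2FC −0.30, adjusted p = 0.00744) and after loess correction of the abundance trend (−0.32, adjusted p = 0.00441), both in edgeR. It also passed without 8 h replicate 1 (−0.29, edgeR adjusted p = 0.00371), and was at −0.10 without 8 h replicate 2. Its exons share 84 bases with UTP23 on the opposite strand, a gene with 101 to 209 counts per library. UTP23 was lower at 8 h (log2FC −0.46, edgeR adjusted p = 0.0297), and its part in the RAD21 value was not tested. RAD21-AS1, also on the opposite strand, shares 166 bases and had 1 to 4 counts per library.

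STAG1 and STAG2 encode the subunits that replace each other in the ring and bind CTCF. STAG1 (chromosome 3, 136055078 to 136471245, minus strand), the form with the larger role at telomeres and at stable loop anchors, had normalized counts of 591 and 587 (4 h) against 398 and 414 (8 h). The times were clearly apart and the replicates close, with a log2FC of −0.54 ± 0.10 (SE; edgeR adjusted p = 0.000309), a decrease of 31.1%. STAG2 (chromosome X, 123094062 to 123556514, plus strand), which is often mutated in tumours, had normalized counts of 690.1 and 568 (4 h) against 664 and 698 (8 h). Its libraries overlapped and its log2FC of 0.11 ± 0.10 (SE; edgeR adjusted p = 0.404) did not pass, turning to −0.02 without 4 h replicate 2.

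The log2FC of STAG2 minus that of STAG1 was 0.65 (standard error 0.14, from both fitted errors taken as independent). Within libraries, where scaling has no part, STAG2 held 53.9% and 49.2% of the counts of the STAG pair at 4 h, and 62.5% and 62.8% at 8 h. Per length of the transcripts these shares were 53.4% and 48.7% (4 h) against 62.1% and 62.4% (8 h). The 95% Wilson intervals of the shares of counts ran from 46.4% to 56.4% over the 4 h libraries and from 59.5% to 65.9% over those at 8 h, for counting error only. The mean log2 ratio of STAG2 to STAG1 went from 0.09 ± 0.19 to 0.75 ± 0.01 (SD, n = 2 each). An exact two-sided permutation test of this ratio gave p = 0.333, the smallest it can give with 2 libraries against 2. STAG1 exons share 1661 bases with those of PCCB on the opposite strand, and the use of strand in counting is not given in the sources used here. PCCB had normalized counts of 241 and 286 (4 h) against 206 and 239.8 (8 h), with a log2FC of −0.25 (edgeR adjusted p = 0.169), and its part in the STAG1 value was not tested.

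**Figure D3:**
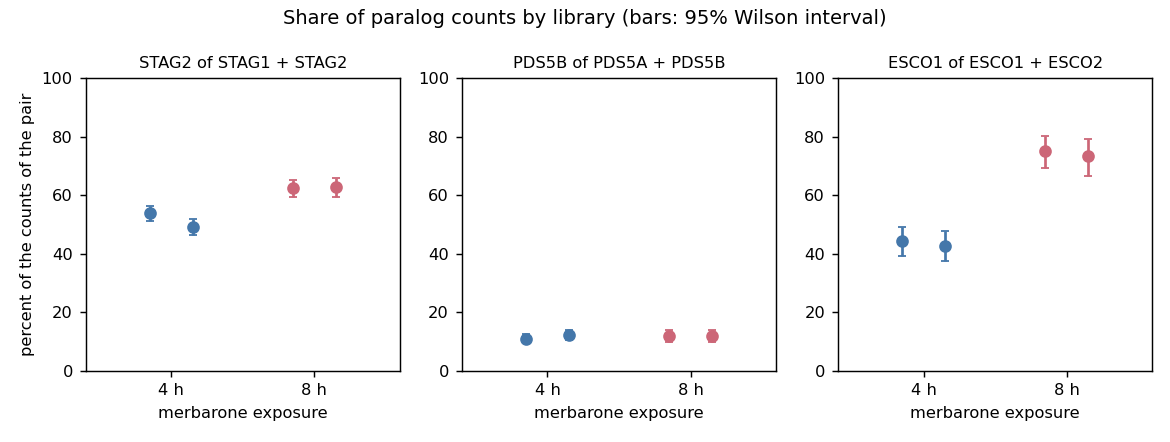
Share of the counts of a paralog pair held by STAG2, PDS5B or ESCO1 in each library (percent, axis from 0 to 100), with 4 h on the left, 8 h on the right and bars for the 95% Wilson interval. STAG2 goes from 49.2% to 53.9% at 4 h to 62.5% to 62.8% at 8 h and ESCO1 from 42.6% to 44.3% to 73.4% to 75.3%, while PDS5B stays between 11.0% and 12.2%.

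NIPBL (chromosome 5, 36876871 to 37066515, plus strand) encodes the loader that also stimulates the ATPase of the ring. Its normalized counts were 629.97 and 683 (4 h) against 730.2 and 772 (8 h). Both 8 h libraries were above both 4 h libraries, but the log2FC of 0.19 ± 0.09 (SE; edgeR adjusted p = 0.106) did not pass. MAU2, the partner of NIPBL in the loading complex, rose from normalized counts of 618 and 568 to 793 and 829, with a log2FC of 0.45 ± 0.09 (SE; edgeR adjusted p = 0.000759). The log2FC of NIPBL minus that of MAU2 was −0.26 (standard error 0.13), which was not tested.

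WAPL (chromosome 10, 88195013 to 88281549, minus strand) encodes the factor that opens the ring and sets how long cohesin stays on DNA. Its normalized counts were 794 and 703 (4 h) against 928 and 881 (8 h). Both 8 h libraries were above both 4 h libraries, with a log2FC of 0.27 ± 0.09 (SE; edgeR adjusted p = 0.0232). This was the weakest of the calls. It was lost with DESeq2 (adjusted p = 0.0799), with scaling by library size alone (0.17, edgeR adjusted p = 0.156), with the abundance correction (0.19, edgeR adjusted p = 0.102), and without 4 h replicate 2 (0.18, edgeR adjusted p = 0.284) or 8 h replicate 1 (0.24, edgeR adjusted p = 0.0631).

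PDS5A and PDS5B encode related scaffold proteins that bind WAPL and, after acetylation of SMC3, the protector sororin. PDS5A (chromosome 4, 39824483 to 39979576, minus strand) had normalized counts of 1175 and 1103 (4 h) against 938 and 1034 (8 h). The libraries did not overlap, and the log2FC of −0.21 ± 0.09 (SE; edgeR adjusted p = 0.0605) lay just short of the threshold. In edgeR it passed with scaling by library size alone (−0.32, adjusted p = 0.00601), with the abundance correction (−0.30, adjusted p = 0.00866), with a CPM filter of 2 (−0.22, adjusted p = 0.0488) and without 8 h replicate 2 (−0.28, adjusted p = 0.017). PDS5B (chromosome 13, 33160589 to 33352157, plus strand) had normalized counts of 145 and 153 (4 h) against 125 and 139 (8 h). Its log2FC was −0.18 ± 0.17 (SE; edgeR adjusted p = 0.407). Within libraries PDS5B held 11.0% and 12.2% of the counts of the PDS5 pair at 4 h. The 8 h shares of 11.7% and 11.9% lay between them. The 95% Wilson intervals of the 4 shares, for counting error only, all lay from 9.51% to 14.1%. Per length the shares of PDS5B were 10.6% and 11.7% (4 h) against 11.3% and 11.4% (8 h). The mean log2 ratio of PDS5B to PDS5A changed by 0.03 (fitted difference 0.03, standard error 0.19). An exact two-sided permutation test gave p = 1. With 2 libraries against 2 it cannot go below 0.333, so it cannot show whether the ratio changed.

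ESCO2 (chromosome 8, 27629466 to 27670157, plus strand) encodes the acetyltransferase that acts at the replication fork, and mutations in it cause Roberts syndrome. It was counted 209 times in each 4 h library and 60 and 51 times at 8 h. The normalized counts were 188 and 189 against 61.4 and 63.4. Replicates differed by little and the times were far apart, with a log2FC of −1.60 ± 0.18 (SE; edgeR adjusted p = 1.37e-06), a decrease of 66.9%. Of all tested genes, 0.828% had a lower log2FC. With 1 library left out in turn, its log2FC stayed between −1.62 and −1.57.

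ESCO1, which acetylates SMC3 outside S phase, had normalized counts of 149 and 141 (4 h) against 187 and 175 (8 h), with a log2FC of 0.33 ± 0.15 (SE; edgeR adjusted p = 0.104). Within the ESCO pair, ESCO1 held 44.3% and 42.6% of the counts (4 h) against 75.3% and 73.4% (8 h). Per length of the transcripts ESCO1 made up 39.9% and 38.3% (4 h) against 71.8% and 69.8% (8 h), so that ESCO2 was the higher of the pair in both 4 h libraries and ESCO1 in both 8 h libraries. The log2FC of ESCO1 minus that of ESCO2 was 1.92 (standard error 0.24), a difference that was not tested.

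**Figure D4:**
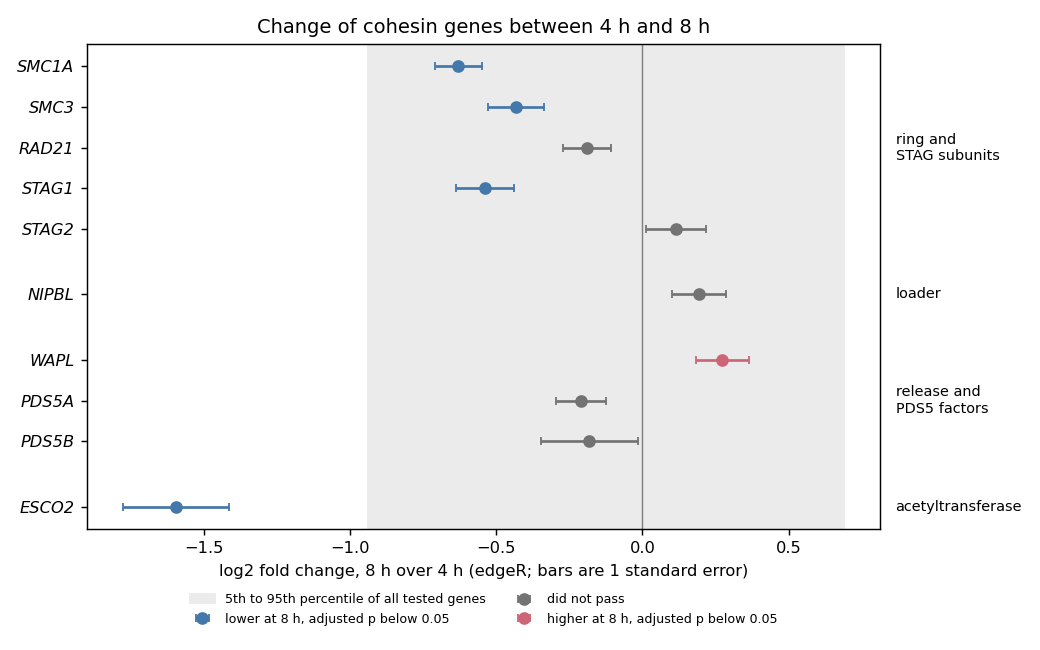
Log2 fold change of each cohesin gene at 8 h over 4 h (points) with 1 standard error (bars), grouped by role, over the band from the 5th to the 95th percentile of all tested genes. ESCO2 at −1.60 is the only gene outside the band, and WAPL at 0.27 is the only rise that passed.

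Genes with the profile most like that of a member were found by the root mean square difference of centred log2 values over the 4 libraries, among 12559 genes. For ESCO2 these were EXO5 (difference 0.026, log2FC −1.59), NEIL3 (0.030, −1.68) and NCAPH (0.036, −1.56), which encode an exonuclease, a DNA glycosylase and a condensin subunit. For RAD21 they were CAPZA1 (0.012, −0.21), GPD1L (0.014, −0.20) and DDX17 (0.014, −0.17). For NIPBL they were GTF2E1 (0.005, 0.20), SCAMP2 (0.005, 0.19) and PACSIN3 (0.007, 0.18). The measure was taken over 4 points per gene and only orders the genes.

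Cohesin regulators and germline subunits formed a list of 13 further genes, of which 10 were tested, with 5 lower, 1 higher and 4 that did not pass, where 18.8% of all tested genes were lower and 19.9% higher. Of the 5 that fell, SGO1, SGO2, ESPL1 and CDCA5 act on mitotic cohesion and REC8 is known from meiosis. SGO2 and SGO1, the shugoshins that protect cohesin at centromeres, fell by 1.58 and 0.94 on the log2 scale (edgeR adjusted p = 7.27e-06 and 0.00126), and SGO2 was a DEG. SGO1, with 45 to 134 counts per library, shares 593 exon bases with SGO1-AS1 on the opposite strand. ESPL1, the separase that cuts RAD21, fell by 0.92 ± 0.14 (SE; edgeR adjusted p = 5.41e-05). CDCA5, which encodes sororin, the protein that keeps WAPL from acetylated cohesin, fell from normalized counts of 986 and 1030 to 692 and 637, a log2FC of −0.60 (edgeR adjusted p = 3.29e-05). REC8, the meiotic kleisin, which shares 36 exon bases with IPO4 on the opposite strand, was counted 198 and 201 times at 4 h and 116 and 81 times at 8 h, a log2FC of −0.71 (edgeR adjusted p = 0.00224).

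In the same list, MAU2 rose, as given above. CTCF was at 652 and 634 normalized counts at 4 h and at 655 and 619 at 8 h, a log2FC of −0.01 ± 0.09 (SE; edgeR adjusted p = 0.931). The deacetylase HDAC8 (log2FC −0.28), the securin PTTG1 (−0.18) and ESCO1 also did not pass. Other germline subunits had few reads or none. SMC1B had 0 counts in all 4 libraries, STAG3 had 1 count in 1 library, and RAD21L1 had between 0 and 5 counts.

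Genes that establish cohesion at the replication fork were mostly lower at 8 h. Of the 8 tested, 7 were lower, 4 of them DEGs, and none was higher, against 18.8% lower and 3.88% lower DEGs among all tested genes, with a median log2FC of −0.83 against 0.00 for all tested genes. CLSPN, which encodes the fork and checkpoint protein claspin, had normalized counts of 501 and 435 (4 h) against 144 and 140.4 (8 h), a log2FC of −1.72 ± 0.13 (SE; edgeR adjusted p = 1.01e-08). The helicase gene DDX11 (log2FC −1.23), TIPIN (−1.06) and DSCC1 (−1.0005) were the other DEGs, with edgeR adjusted p-values of 0.000145, 0.00192 and 0.0043. DSCC1 lay barely beyond the threshold of 1 on absolute log2FC. Over the alternatives, with the fits without 1 library among them, DSCC1 ranged from −1.16 to −0.82 and TIPIN from −1.41 to −0.82. DDX11 stayed between −1.42 and −1.06. DSCC1 had normalized counts of 59.2 and 73.4 (4 h) against 33.8 and 32.3 (8 h), rested on 26 to 81 counts and did not pass without 4 h replicate 2, and for DDX11 only 68.4% of the possible read starts were unique. WDHD1 (−0.65), TIMELESS, the partner of TIPIN (−0.56), and CHTF8 (−0.45) fell as well, though CHTF8 shares 2803 exon bases with DERPC on the same strand. CHTF18, a subunit of the same clamp loader as CHTF8 and DSCC1, had a log2FC of −0.27 (edgeR adjusted p = 0.109), with 8 h replicates at 384 and 559. It ranged from −0.56 to −0.01 over the alternatives and passed without 8 h replicate 2.

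The SMC5/6 complex, a relative of cohesin that acts in DNA repair, was also listed. Of 9 tested genes, 4 were lower, 2 higher and 3 did not pass, and the share called higher was near the 19.9% of all tested genes (18.8% were lower), with a median log2FC of −0.46. SLF1, which recruits the complex to damaged DNA, fell from normalized counts of 137 and 123 to 51.1 and 33.5 (log2FC −1.60, standard error 0.22, edgeR adjusted p = 1.74e-05). NSMCE4A (−0.84), NSMCE3 (−0.54) and SMC6 (−0.46) fell too, while the log2FC of SMC5, the partner of SMC6, was −0.28 (edgeR adjusted p = 0.0658). NSMCE3 lost its call without 4 h replicate 2 and SMC6 without 4 h replicate 1. SLF2 (0.31) and NSMCE1 (0.35) rose, but both lost their call with DESeq2 and with scaling by library size alone. SLF2 also lost it with the abundance correction. Both genes lost their call as well without 4 h replicate 1, without 4 h replicate 2 and without 8 h replicate 1. Over the alternatives, with the fits without 1 library among them, SLF2 ranged from 0.20 to 0.40 and NSMCE1 from 0.24 to 0.41. NSMCE2 (0.09) and EID3 (−0.57, with 4 to 24 counts) did not pass.

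**Figure D5:**
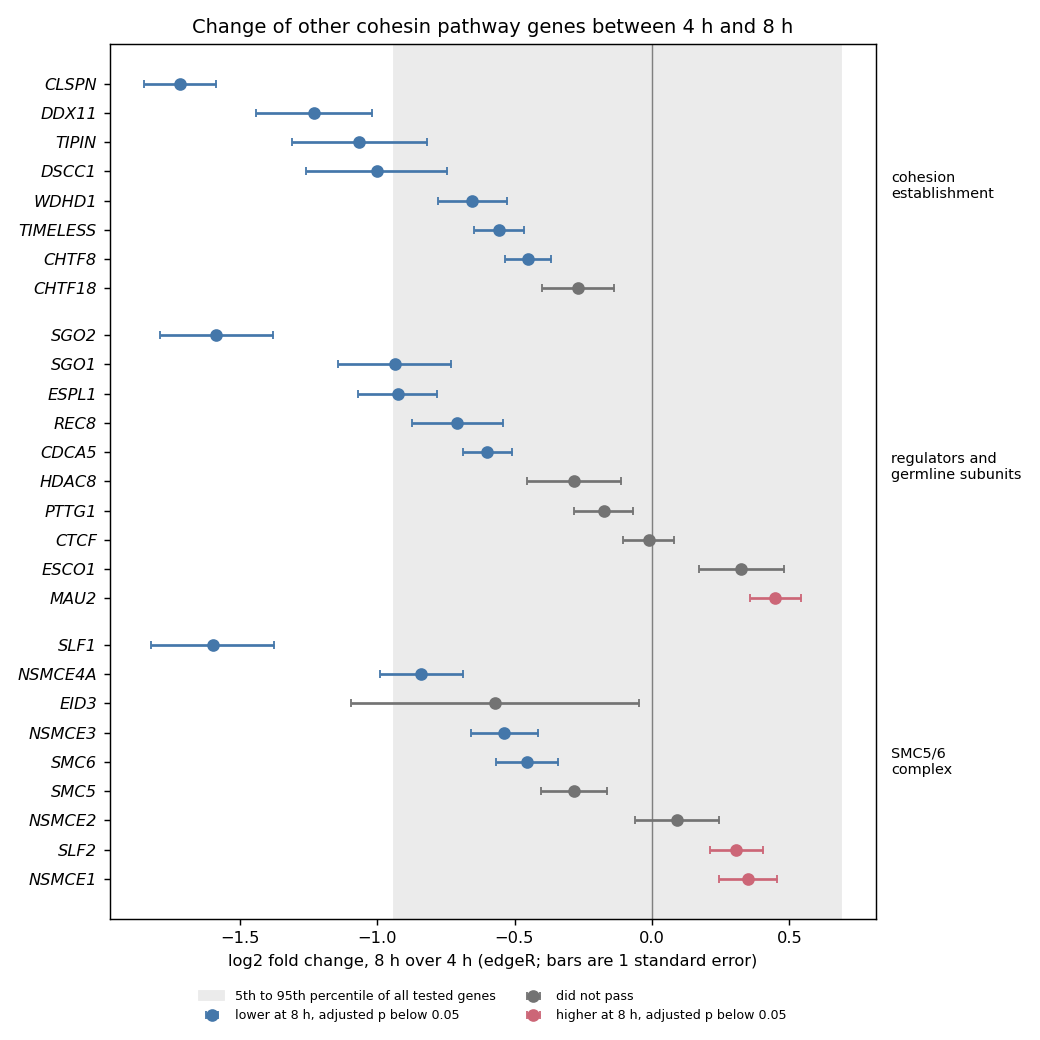
Log2 fold change at 8 h over 4 h (points) with 1 standard error (bars) for the 27 tested genes of 3 further lists, over the band from the 5th to the 95th percentile of all tested genes. The cohesion establishment genes lie on the lower side (median −0.83), with CLSPN lowest at −1.72, and MAU2 at 0.45 is the highest.

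Markers of cycling cells and of other cell types were compared between the times in the same way. All 12 cycling markers were lower at 8 h, 10 of them DEGs, against 18.8% and 3.88% of all tested genes, with log2FC from −2.67 in CCNE2 to −0.40 in PCNA, and their summed level was 1365 and 1334 in TMM-scaled CPM (4 h) against 691 and 638 (8 h). The median of the 12 was −1.26, and only AURKB (−0.60) and PCNA were not DEGs. ESCO2 at −1.60 lay below that median, while SMC1A at −0.63, STAG1 at −0.54 and SMC3 at −0.43 lay above it, toward PCNA. Of the 3 mesenchymal markers, VIM and FN1 were higher (log2FC 0.36 each, edgeR adjusted p = 0.000623 and 6.48e-05) and CDH2 did not pass. Of the epithelial keratins, KRT18 was lower (−0.51, edgeR adjusted p = 3.72e-05) and KRT8 did not pass. Among the immune markers CD68 was higher (0.39, edgeR adjusted p = 0.00298), while CD3E was at 0 counts and PTPRC at 3 to 8 counts. Of the pigment epithelium markers, 4 were tested and 0 passed, and the 3 endothelial markers had at most 5 counts. The part of cycling cells or of other cell types in the values of the cohesin genes was not tested.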

How the data were processed

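RNA-Seq libraries of RPE-1 cells, 2 at 4 h and 2 at 8 h of merbarone, were grouped by their sample labels. After a quality filter (FASTQC), the authors aligned reads against hg19 by Bowtie 1.2.0, kept those with a single position and deposited raw counts per gene by NCBI Gene identifier. The annotation and counting tool are not given in the sources used here. Symbols (23308 genes) came from RefSeq (GRCh38.p14), and positions and transcripts from GENCODE on GRCh37.

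Only genes reaching more than 1 CPM in 2 or more libraries were tested, TMM factors were calculated and 8 h was tested against 4 h with the quasi-likelihood test of edgeR 4.0.16 (R 4.3.3). Standard errors are the log2FC divided by the root of F. The authors' Limma-Voom test (limma 3.58.1), DESeq2 1.42.0, other scalings and filters, an abundance correction, glmTreat, a replicate block and leaving out each library were alternatives. The tests were checked on simulated counts. The biological coefficient of variation was 6.52%. The study calls the replicates biological and the labels name no separate cultures, so p-values measure only the spread between these libraries, which may be technical. The 10 genes, the gene lists and the motifs were chosen with earlier results of these data known. Named genes were the 10, list genes that passed or are germline subunits, and the 3 most alike for ESCO2, RAD21 and NIPBL. Other list genes were named after their values were seen. A further gene of the planned pathway lists was left out of them and is not reported here.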

Additional observations from a re-analysis of the deposited data

How the results depend on the processing

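Samples of both times share replicate numbers. Deviations of same-numbered libraries had a correlation of 0.05 over 12559 genes, so the numbers were not taken to pair the libraries. With the replicate number as a block, RAD21 (log2FC −0.19, adjusted p = 0.0261) and PDS5A (−0.21, adjusted p = 0.0292) passed in edgeR, and no other of the 10 genes changed its call. CHTF18 and SMC5 also passed with the block. Without the block, SMC1A, SMC3, STAG1 and ESCO2 kept their call in Limma-Voom, DESeq2, each scaling, each filter, the abundance correction and each set of 3 libraries. With glmTreat, which tests for a log2FC beyond 1, the cohesin genes gave 0 higher, 0 lower and 0 DEGs: SMC1A (−0.63), SMC3 (−0.43), STAG1 (−0.54), WAPL (0.27) and ESCO2 (−1.60, adjusted p = 0.0603) did not pass, and of all genes 26 were higher and 58 lower, 84 in all. Library size alone moved the median of all genes by −0.11, gave 1698 higher and 3289 lower genes against 2500 and 2367 with TMM, and 125 higher and 641 lower DEGs against 182 and 487. With it RAD21 (−0.30) and PDS5A (−0.32) passed and WAPL (0.17) did not, as in the abundance correction (RAD21 −0.32, PDS5A −0.30, WAPL 0.19), which gave 262 higher and 338 lower DEGs. PDS5A passed with a CPM filter of 2 (−0.22), and WAPL did not with DESeq2 (0.28), which called 1503 genes lower. The number of cohesin genes called higher was 0 with DESeq2, library size alone and the abundance correction, and of the other pathway genes 1 was higher with DESeq2 and with library size alone, against 3. PTTG1, CHTF18 and SMC5 passed with library size alone, all toward lower values as the shift of the median, and ESCO1 passed with the abundance correction. The cause of these changes was not tested. Without 1 of the 4 libraries, the lone library of that time was assumed to vary like the other time. In these fits RAD21 ranged from −0.29 to −0.10, STAG2 from −0.024 (without 4 h replicate 2) to 0.25 and WAPL from 0.18 to 0.35. PDS5A ranged from −0.28 to −0.14, PDS5B from −0.26 to −0.10 and NIPBL from 0.12 to 0.25. SMC3 ranged from −0.51 to −0.36, the latter without 4 h replicate 1, against −0.43 with all 4 libraries. Cohesin genes called higher were 0 to 1, other pathway genes called higher 1 to 3, and all genes called higher 1562 to 2527 and lower 1499 to 2311. The change of the PDS5B to PDS5A ratio ran from −0.052 (without 4 h replicate 1) to 0.11. PDS5B, with 112 to 169 counts per library, and ESCO2 at 8 h limit the precision most among the 10 genes.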
